A study of Bos taurus with 16 samples.

Results

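The CpG islands of cattle chromosomes 18, 2 and 21 that were examined here spanned chr18:59225247-59226010, chr2:121571592-121575924 and chr21:33002605-33028963 of the assembly ARS-UCD1.2. Their members were chosen by position alone, as every cytosine position of the deposited table within these bounds, which gave 158, 146 and 120 positions, or 424 of 199395 in all. The bounds are those of regions that the study had singled out for their many differentially methylated sites, so a difference between groups in them is not independent evidence. DNA methylation was measured by reduced representation bisulfite sequencing (RRBS) in 16 libraries of endometrial cells from postpartum Holstein cows that had calved more than once, collected from the uterus with a cytobrush. The cows were inseminated between days 50 and 64 after calving and brushed 4 to 8 h later. Each of the 4 groups had 4 libraries. Cows of the control diet (CON) received no rumen-protected methionine (RPM), and cows of the methionine diet (MET) received RPM each day from day 12 after calving. A later pregnancy check divided each diet into cows that resulted in pregnancy (CON_P, MET_P) and in no pregnancy (CON_noP, MET_noP), so that every cow was inseminated and the groups are labelled by diet and by later outcome. DNA was isolated from more samples than there are libraries and the number of cows in a library is not given, so the spread between libraries may not be a spread between single cows. Libraries are named by the number in their column (S12 to S31), and group membership comes from the group name above the column.

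DNA methylation in mammals is found mostly at cytosines followed by a guanine (CpG), where both strands can carry the mark. Most CpGs of the genome are methylated, whereas CpG islands, stretches dense in CpGs that often lie at gene starts, are usually not. Methionine is the precursor of S-adenosylmethionine, the methyl donor of DNA methyltransferases. RRBS cuts DNA at CCGG with MspI and reads the fragment ends, so that a long island is seen only in the short stretches next to such cuts. Bisulfite turns unmethylated cytosines into uracil, and the percentage of reads that still show cytosine is the methylation level of the position. The depth behind each percentage is unknown, and no counting error can be given for a single value.

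The islands on chromosomes 18 and 2 were lowly methylated, whereas that on chromosome 21 was highly methylated. Averaged over all libraries, the mean of the positions was 25.8% on chromosome 18 and 22.2% on chromosome 2, but 79.2% on chromosome 21. On chromosome 18, 120 of 158 positions (75.9%) lay under 30%, and on chromosome 2 this held for 114 of 146 (78.1%). Only 1 of 120 positions of the chromosome 21 island lay under 30%, while 109 were at 60% or more and 77 at 80% or more. Of all positions in the table, 25.6% lay under 30% and 59.3% at 60% or more. Positions with a zero value had been dropped, so positions without methylation in a library are missing from these shares. The chromosome 18 island was also the densest, with 20.7 measured positions per 100 bp over 764 bp, against 3.37 over 4333 bp on chromosome 2 and 0.455 over 26359 bp on chromosome 21. Positions no more than 100 bp apart were joined to a segment, which gave 2 segments on chromosome 18, 6 on chromosome 2 and 9 on chromosome 21, numbered along the chromosome.

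No gene was given at any position of the chromosome 18 island. The nearest positions with a gene were 722703 bp before it, in ENSBTAG00000011052, and 862574 bp behind it, in ZNF677, a zinc finger gene. On chromosome 2, 128 of the 146 positions carried the gene ENSBTAG00000051364, for which no name or description was given, and the 18 positions of segment 6 carried none. On chromosome 21 the table gave a gene at 10 positions of segment 2, between 33002799 and 33002904, as RF00001 (ENSBTAG00000050043), a gene of 5S ribosomal RNA, the small RNA of the large ribosomal subunit that is not transcribed with the other ribosomal RNAs. Exon, intron and promoter positions were not analysed here. The bounds did not part methylated from unmethylated DNA on chromosome 21, where the nearest positions outside, 10 bp before and 13 bp behind the island, had means of 91.4% and 89.7%, beside 82.8% at the first and 73.8% at the last position inside. On chromosome 2 the positions 72 and 77 bp before the start lay at 19.9% and 20.9%, near the 16.4% of the first position inside, while the next position behind the end, at a distance of 6702 bp, lay at 95.7%. On chromosome 18 the next position behind the end was 542 bp away and lay at 11.2%, beside 13.4% at the last position inside, and the nearest one before the start was 487883 bp away.

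The low level of the chromosome 18 island was broken in several places. The longest run of neighbouring positions at 50% or more, singled out after its values were seen, held 16 positions over 39 bp (59225685 to 59225723 in segment 2) with a mean of 72.8% and position means from 50.9% to 95.7%. The positions next to it on either side lay at 30.3% and 24.8%, and the other 142 positions of the island averaged 20.5%. Among those outside the run, 59225483 lay at 63.4%, 59225848 at 84.2% and 59225855 at 56.0%. Library means of the run were 76.7, 65.0, 76.3 and 72.8% in CON_P (S14, S18, S26 and S30), 72.4, 50.0, 72.4 and 59.9% in CON_noP (S12, S16, S24 and S28), 82.0, 79.1, 81.1 and 77.7% in MET_P (S15, S19, S27 and S31) and 82.7, 66.0, 70.6 and 80.3% in MET_noP (S13, S17, S25 and S29). All MET_P libraries lay above all CON_P libraries there, 79.99% ± 1.90 against 72.7% ± 5.44 (SD, n = 4 each), whereas the other groups overlapped with their counterparts. As the run was picked with these values in view, the difference of 7.28 percentage points was not tested. The highest position of the island (59225693, 95.7% over all libraries, 85.1% to 99.2%) lay in this run and the lowest (59225905, 4.92%, 2.40% to 8.01%) outside it.

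**Figure D1:**
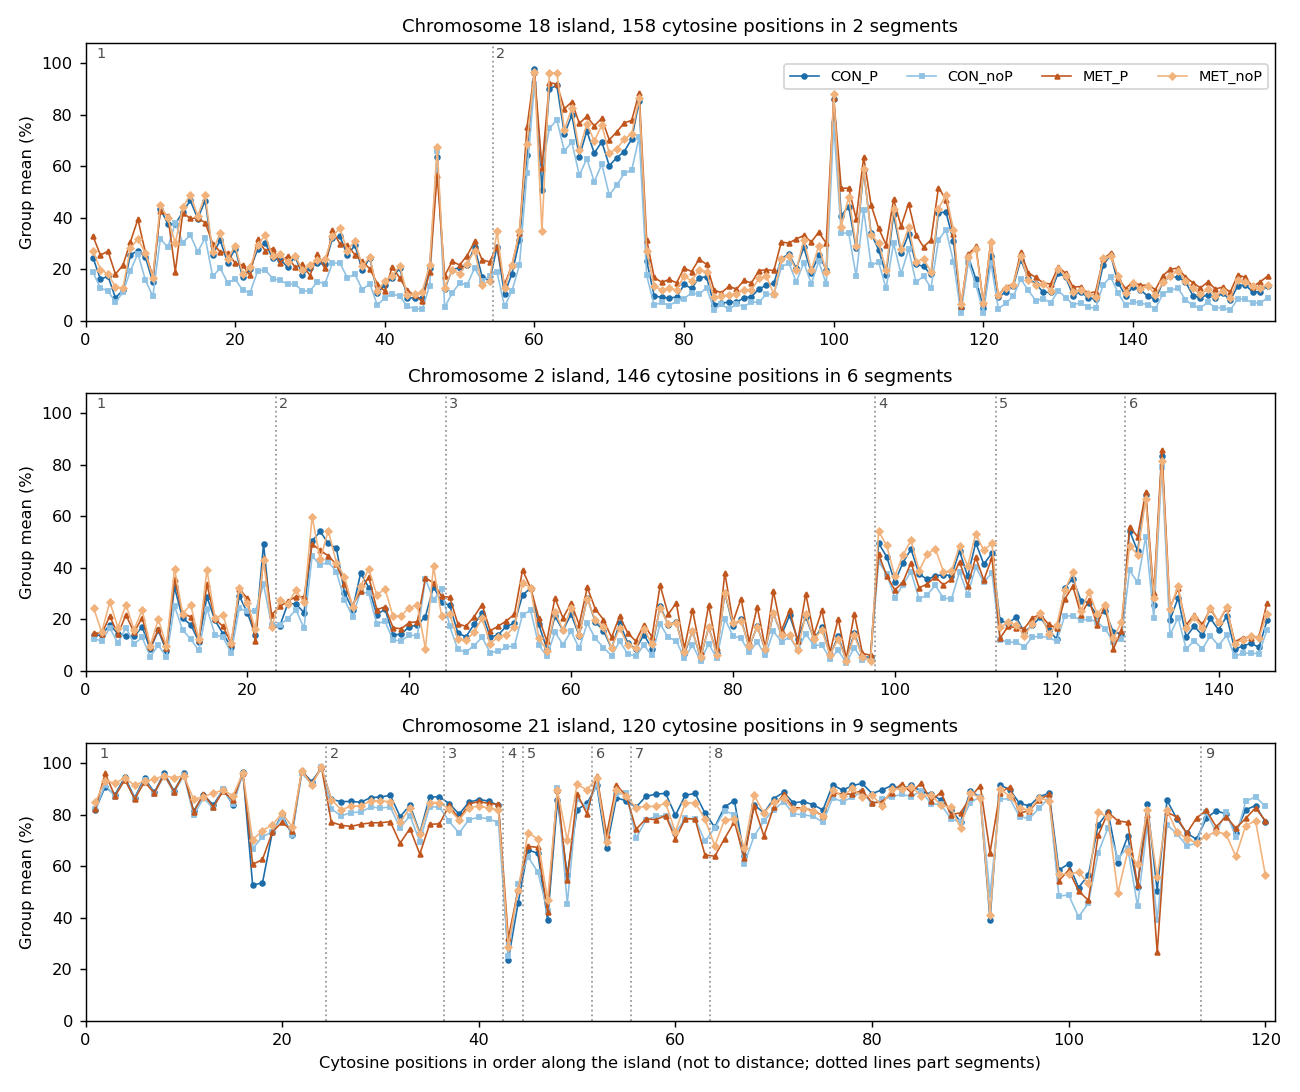
Group mean methylation in percent (vertical axis) of each cytosine position in order along the 3 islands (horizontal axis, not to distance), with 1 line per group, the means of 4 libraries, and dotted lines between numbered segments. The chromosome 18 and 2 islands stay under 30% at most positions apart from the run in segment 2 of chromosome 18 and segment 4 of chromosome 2, CON_noP is the lowest line along most of both, and the chromosome 21 island lies mostly above 60%.

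Where both cytosines of a CpG were measured, they sit at neighbouring positions on opposite strands, and each 2 neighbouring positions of the table were taken as such a pair. Outside the studied islands, 8802 pairs had a median difference (first minus second) of -0.005 percentage points, and 413 of them (4.69%) differed by more than 10. Pairs of the islands differed more often by this much, with 10 of 66 (15.2%) on chromosome 18, 10 of 56 (17.9%) on chromosome 2 and 5 of 31 (16.1%) on chromosome 21. The pairs outside were not matched to the islands by methylation level, and the part of level in this contrast was not tested. The direction went with the segment on chromosome 2: the first position was the higher one in 10 of 10 pairs of segment 1 and in 22 of 25 pairs of segment 3, by a median of 8.03 and 8.09 percentage points, but in 1 of 6 pairs of segment 5 and 1 of 7 of segment 6. In segment 1 of chromosome 21 the first position was lower in all 11 pairs, by a median of -5.54 percentage points. The widest pair of chromosome 2 lay at 121575869 and 121575870, with 26.1% and 82.5%, and in each of the 16 libraries the first position was the lower one. On chromosome 18 the widest pair lay at 59225483 and 59225484, with 63.4% and 11.9%, and the first position was the higher one in all 16 libraries. These strand differences are a description and were not tested.

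Library by library, the chromosome 18 mean was 25.95, 23.7, 29.5 and 24.8% in CON_P (S14, S18, S26 and S30) and 23.9, 14.8, 22.9 and 17.4% in CON_noP (S12, S16, S24 and S28). It was 30.98, 26.5, 37.4 and 25.02% in MET_P (S15, S19, S27 and S31) and 32.4, 20.1, 27.9 and 30.2% in MET_noP (S13, S17, S25 and S29). The lowest library of all was S16 of CON_noP and the highest S27 of MET_P. Group means were 25.97% ± 2.54, 19.8% ± 4.35, 29.95% ± 5.56 and 27.7% ± 5.36 (SD, n = 4) for CON_P, CON_noP, MET_P and MET_noP, so the 2 groups of the same diet or outcome lay 2.27 to 7.93 percentage points apart. No pair of groups compared was free of overlap.

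The chromosome 2 island gave 24.5, 20.8, 24.9 and 20.2% in CON_P and 23.9, 11.1, 18.9 and 15.9% in CON_noP, in the same order of libraries. In MET_P it was at 23.3, 23.2, 29.8 and 21.8% and in MET_noP at 31.7, 18.3, 21.8 and 24.9%. Here too S16 was the lowest library, and S13 of MET_noP the highest. The group means were 22.6% ± 2.43, 17.4% ± 5.40, 24.5% ± 3.57 and 24.2% ± 5.69.

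On chromosome 21 the values were 82.8, 81.3, 78.8 and 79.2% in CON_P, 79.1, 76.5, 79.3 and 75.1% in CON_noP, 82.5, 75.9, 81.5 and 74.6% in MET_P and 81.6, 82.2, 76.9 and 79.5% in MET_noP. S31 of MET_P was the lowest and S14 of CON_P the highest. The group means were 80.5% ± 1.88, 77.5% ± 2.06, 78.7% ± 3.93 and 80.1% ± 2.40. The MET_P libraries split into a pair above 81% and a pair under 76%, and the groups overlapped in all comparisons.

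**Figure D2:**
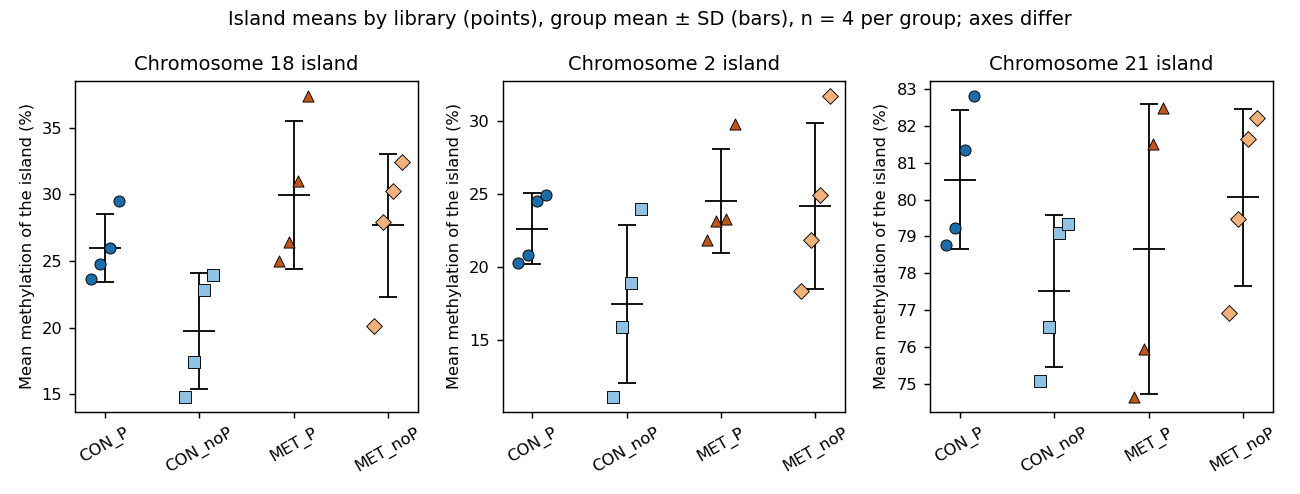
Mean methylation in percent (vertical axis) of the chromosome 18, 2 and 21 islands in each library (points, 4 per group), with group mean and SD (bars) and a separate axis range per island. CON_noP has the lowest group mean in each of the 3 islands, and the groups of each of the 4 comparisons overlap.

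The diets were compared within each outcome. Among cows that did not become pregnant, both lowly methylated islands were higher with RPM: the mean was 7.93 ± 3.45 percentage points (SE) higher in MET_noP than in CON_noP on chromosome 18, in 14 of 16 library pairs, and 6.75 ± 3.92 higher on chromosome 2, in 13 of 16. The chromosome 21 island was 2.54 ± 1.58 higher. At 154 of 158 positions of chromosome 18 (97.5%) and 141 of 146 of chromosome 2 (96.6%) the MET_noP mean was the higher one, against 57.3% of all positions in the table. Neighbouring positions share reads and libraries, so these shares say nothing about the error of the difference. As a region in a limma fit over 13267 regions, the chromosome 18 island differed by 0.82 ± 0.37 (SE) in M value (the log2 of percent methylated over percent unmethylated, each with an offset of 1), with an adjusted p of 0.901, and the chromosome 2 island by 0.67 ± 0.38 with an adjusted p of 0.921. No region of the fit passed (0%). No position of the islands passed an adjusted p of 0.05, as was the case for the whole table (0%), and 23 of the 424 positions had an unadjusted p under 0.05, beside 5.13% of all positions. Of the 23, 17 lay in the chromosome 18 island and all of these were higher in MET_noP, a count that lay between 2 (without S28) and 89 (without S17) when a library was left out and moved by over 1.5 times for each of the 8 libraries (S12 55, S13 3, S16 3, S24 11, S25 3 and S29 4). The 4 MET_noP libraries lay wholly above the 4 CON_noP libraries at 4 positions of chromosome 18 (2.53%), at 0 of chromosome 2 and at 5 of chromosome 21 (4.17%), beside 1.85% of all positions. They lay wholly below at 1 position, on chromosome 21, beside 0.903% of all.

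Among cows that became pregnant the differences by diet were smaller in size, and the test of this contrast is the interaction given below. MET_P was 3.98 ± 3.06 percentage points higher than CON_P on chromosome 18, 1.89 ± 2.16 higher on chromosome 2, and the difference on chromosome 21 was -1.89 ± 2.18. The region fit gave adjusted p values of 0.822, 0.901 and 0.903, with no region passing (0%). No position passed after adjustment (0%), and 5 of the 424 had an unadjusted p under 0.05, beside 5.83% in the table. MET_P lay wholly above CON_P at 6 positions of chromosome 18 (3.797%) and 1 of chromosome 21 (1.92% of all positions), and wholly below at 7 positions of chromosome 21 (5.83%), beside 1.17% of all.

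Pregnancy was compared within each diet. With the control diet, CON_P was 6.21 ± 2.52 percentage points higher than CON_noP on chromosome 18, 5.18 ± 2.96 higher on chromosome 2 and 3.02 ± 1.39 higher on chromosome 21. In 15, 14 and 13 of 16 library pairs the CON_P library was the higher one. The same CON_noP libraries entered the comparison with MET_noP above, so these differences are not independent of each other. The adjusted p was 0.9999 for each island in the region fit, in which no region passed (0%), and no position passed (0%). At an unadjusted p under 0.05 there were 5 of the 424 positions, beside 3.93% of all, and all 5 lay on chromosome 18. Without S12 the counts on chromosomes 18, 2 and 21 were 45, 10 and 3. On chromosome 18 the count was 1 without S16, S26 or S28, and on chromosome 2 it was 5 without S24. At 17 positions of chromosome 18 (10.8%), 1 of chromosome 2 and 8 of chromosome 21 (6.67%) the CON_P libraries lay wholly above CON_noP, beside 1.22% of all positions, and at none did they lay wholly below, beside 0.77% of all.

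With the methionine diet the differences by outcome were small and of no fixed sign. MET_P was 2.27 ± 3.86 percentage points higher than MET_noP on chromosome 18 and 0.323 ± 3.36 higher on chromosome 2, and differed by -1.41 ± 2.30 on chromosome 21. Without S17 or S27 the sign turned on chromosome 18, to -0.242 and -0.202, and on chromosome 2, to -1.63 and -1.433, where it also turned without S25, to -0.473. Adjusted p values of the region fit were 0.967, 0.981 and 0.969, with no region passing (0%). No position passed (0%), and 5 of the 424 had an unadjusted p under 0.05, beside 5.12% of all. MET_P lay wholly above MET_noP at 2 positions of chromosome 18, 6 of chromosome 2 (4.11%) and 2 of chromosome 21, beside 1.64% of all positions, and wholly below at 2 of chromosome 21, beside 1.26%.

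Over both outcomes, libraries of the methionine diet were 5.96 ± 2.30 percentage points (SE) higher than those of the control diet on chromosome 18, 4.32 ± 2.24 higher on chromosome 2 and 0.329 ± 1.35 higher on chromosome 21. This chromosome 21 difference turned to -0.410 with the median over positions and to -0.502 relative to the mean of each library, and to -0.312, -0.149, -0.0769 and -0.0287 without S15, S27, S28 and S17. The adjusted p was 0.650 for chromosome 18 (0.57 ± 0.24 in M value), 0.7096 for chromosome 2 (0.43 ± 0.24) and 0.984 for chromosome 21, and no region passed (0%). The median M value of all positions was itself 0.13 higher with methionine, and with libraries centred on the same median the chromosome 18 difference was 0.44 ± 0.24. No position of the islands or of the table passed (0%). At an unadjusted p under 0.05 there were 47 of 424 positions, beside 6.06% of all, of which 46 were higher with methionine, 30 on chromosome 18 and 16 on chromosome 2, beside 3.86% of all positions in that direction. On chromosome 18, 26 of the 30 lay in segment 2. Leaving out a library moved the count of 30 to 7 without S13 or S16 and to 66 without S17, and by over 1.5 times also without S15 (18), S18 (16), S27 (13), S28 (15), S29 (11) or S30 (19). The count of 16 lay between 0 (without S13) and 36 (without S17) and was 1 or 2 without S16, S18, S27, S28, S29 or S30, 6 without S15, 7 without S25, 29 without S26 and 31 without S12.

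Over both diets, libraries of cows that became pregnant were 4.24 ± 2.30 percentage points higher on chromosome 18, 2.75 ± 2.24 higher on chromosome 2 and 0.804 ± 1.35 higher on chromosome 21, with an adjusted p of 0.9999 for each and no region passing (0%). The table held 1 position past an adjusted p of 0.05 (0.000502%), which lay outside the islands. At an unadjusted p under 0.05 there were 22 of 424 positions, beside 3.83% of all. All 22 were higher with pregnancy (2.38% of all positions), 20 of them on chromosome 2, and 19 of these 20 lay in segment 3, between 121574383 and 121574534. The count of 20 was 1 without S16 or S17, 2 without S14 or S28, 3 without S26, 4 without S15, 7 without S27 and 11 without S25. The difference by outcome was smaller with methionine than with the control diet in each island, by -3.94 ± 4.61, -4.86 ± 4.48 and -4.43 ± 2.69 percentage points on chromosomes 18, 2 and 21. The interaction had an adjusted p of 0.921 in each island, with no region passing (0%), while 2 positions of the table passed (0.001%), both outside the islands, and 20 of the 424 had an unadjusted p under 0.05, beside 5.25% of all.

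**Figure D3:**
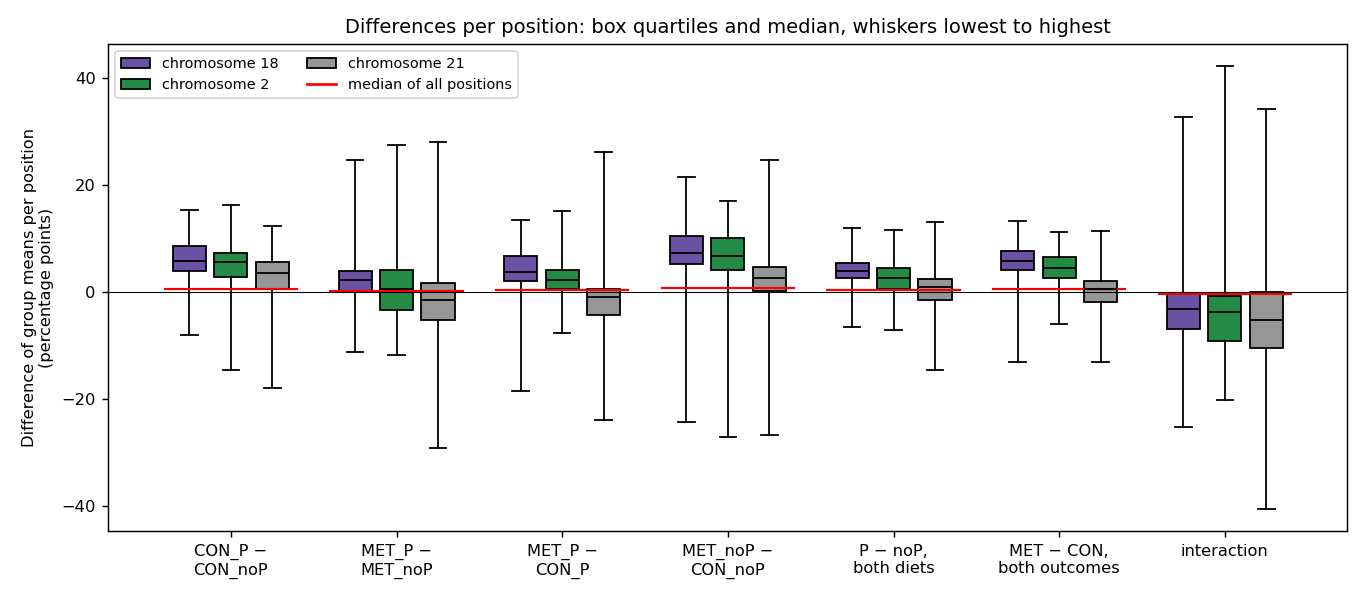
Difference between group means per cytosine position in percentage points (vertical axis) for the 7 comparisons (horizontal axis), with boxes for the quartiles and median of the chromosome 18, 2 and 21 islands, whiskers to the lowest and highest position and a red line at the median of all positions. In MET_noP against CON_noP the median position of chromosome 18 lies 7.32 percentage points and that of chromosome 2 6.66 above zero, beside 0.708 for all positions, while single positions reach from -27.1 to 24.7.

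Single positions varied far more than the island means. The position with the lowest p in 3 of the 4 comparisons on chromosome 2 was 121572448, in segment 2 and in ENSBTAG00000051364. It had 46.2, 27.8, 35.6 and 35.0% in MET_P and 7.14, 16.7, 5.77 and 4.88% in MET_noP, without overlap. In CON_P it had 5.88, 5.88, 30.5 and 41.9%, and in CON_noP 4.55, 52.9, 51.6 and 33.7%, so that the 4 CON_noP libraries alone spanned the whole range of the 16. The difference of MET_P and MET_noP was 27.5 percentage points, or 2.59 ± 0.50 in M value, with an adjusted p of 0.374, the lowest of any island position in any comparison. MET_noP differed from CON_noP by -27.1 points there (adjusted p = 0.906), against the direction of the island.

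On chromosome 18 the position of lowest p for MET_noP against CON_noP was 59225696, in the methylated run. It had 99.5, 89.4, 98.0 and 98.3% in MET_noP and 96.3, 54.7, 81.7 and 66.2% in CON_noP, a difference of 21.6 points with overlap through S12 (adjusted p = 0.906). Just before it, 59225694 gave the lowest p for MET_P against MET_noP, with 34.6, 66.2, 62.1 and 74.3% against 22.6, 56.2, 27.8 and 31.9%, an overlap and an adjusted p of 0.931. In CON_noP this position had 9.09% in S12 and 73.0 to 80% in the other libraries. For MET_P against CON_P it was 59225868, with 30.9, 28.1, 41.8 and 24.6% against 13.9, 9.25, 26.8 and 21.6%, again with overlap (adjusted p = 0.827), and for CON_P against CON_noP 59225693, with 96.6 to 98.5% against 85.1 to 95.4% and no overlap (adjusted p = 1). The largest spread within groups on this island was at 59225360, whose libraries reached from 8.33% to 82.0%, with an SD within groups of 25.9. Its values included 8.33, 16.7, 25 and 75%, fractions that few reads can give. The part of depth in this spread was not tested.

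On chromosome 21 the last position, 33028963, had the lowest p for MET_noP against CON_noP, with 34.2, 65.1, 60.9 and 66.7% against 67.9, 91.3, 82.5 and 91.7%. The groups did not overlap, and the difference of -26.6 points, -2.06 ± 0.65 in M value, had an adjusted p of 0.906. The next position, 13 bp further on at a mean of 89.7%, lies outside the bounds. Position 33026097 was 27.99 points higher in MET_P than in MET_noP, at 75, 82.9, 85.8 and 67.2% against 65.7, 47.9, 51.9 and 33.3%, again without overlap (adjusted p = 0.890). For MET_P against CON_P the lowest p was at 33025659, with 73.6, 52.2, 69.6 and 62.6% against 78.7, 82.1, 76.6 and 85.7% (-16.3 points, adjusted p = 0.827), and for CON_P against CON_noP at 33025647, with 86.2 to 90.04% against 72.3 to 85.7% (9.78 points, adjusted p = 1). The highest position of the island, 33002667, stood at 98.5% and varied by an SD of 0.276 within groups, whereas 33026011 ranged from 1.11% to 96.8%.

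The RF00001 positions of chromosome 21 were the only ones in the islands with a gene of known product. Their mean was 80.5, 87.6, 83.3 and 85.2% in CON_P, 82.8, 82.7, 78.7 and 76.4% in CON_noP, 76.6, 74.8, 80.7 and 65.8% in MET_P and 80.1, 85.2, 82.3 and 82.4% in MET_noP. MET_P was the lowest group, 74.5% ± 6.26 against 84.2% ± 2.997 in CON_P (SD, n = 4 each), and only its highest library, S27, reached the lowest of CON_P, S14. The other 22 positions named RF00001 in the table, in 4 genes on chromosomes 20, 23 and 25, showed 84.4% ± 1.65 in MET_P and 82.4% ± 2.84 in CON_P. Copies of the 5S gene are nearly identical in sequence, so reads may have been assigned to one copy or another, which makes the values of each copy uncertain. In the neighbouring segments these 2 groups lay closer together. Segment 1, 119 bp before, had 86.1% in MET_P and 85.5% in CON_P, the other order. Segment 3 had 83.4% and 84.1%, the same order.

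Across the 16 libraries, chromosomes 18 and 2 varied together. The island means had a Pearson r of 0.92 and a Spearman rho of 0.89, and the deviations of libraries from their group mean, which hold no difference between groups, gave r = 0.88. Without S16 and S27, the 2 libraries farthest from the median of chromosome 18, r was 0.86. With chromosome 21 the r was 0.43 for chromosome 18 and 0.46 for chromosome 2, and 0.29 and 0.32 without the 2 farthest libraries. All islands share library, depth and bisulfite treatment within a library, and r describes these libraries only. The mean of all positions outside the studied islands, which lay between 61.7% and 65.4%, had an r of 0.57, 0.59 and 0.42 with chromosomes 18, 2 and 21.

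Segment 4 of chromosome 2 did not follow the rest of its island. Its 15 positions, over 121574811 to 121574903 in ENSBTAG00000051364, had a mean of 39.5%, and the library means reached from 8.395% in S16 to 71.5% in S13, an SD of 15.8 beside 4.97 to 6.01 in the other segments of the island. In CON_P the segment had 49.8, 37.4, 38.6 and 39.9%, and in CON_noP 60.5, 8.395, 35.6 and 30.7%. In MET_P it had 29.6, 46.6, 23.5 and 49.6%, and in MET_noP 71.5, 47.5, 17.6 and 45.4%. The spread within CON_noP, MET_P and MET_noP was thus wider than any difference between group means, which ran from 33.8% to 45.5%. All positions of the segment varied together: over their 105 pairs the lowest r across libraries was 0.90 and the median 0.97. With the rest of the chromosome 2 island the segment had an r of 0.26, and with chromosome 18 of 0.22. When the segment was left out, the r between chromosomes 2 and 18 was 0.98 in place of 0.92. Of 464 other regions with at least 10 positions and a mean within 10 percentage points, 8 (1.72%) had a larger SD between libraries. The choice of this segment was made after its values were seen.

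**Figure D4:**
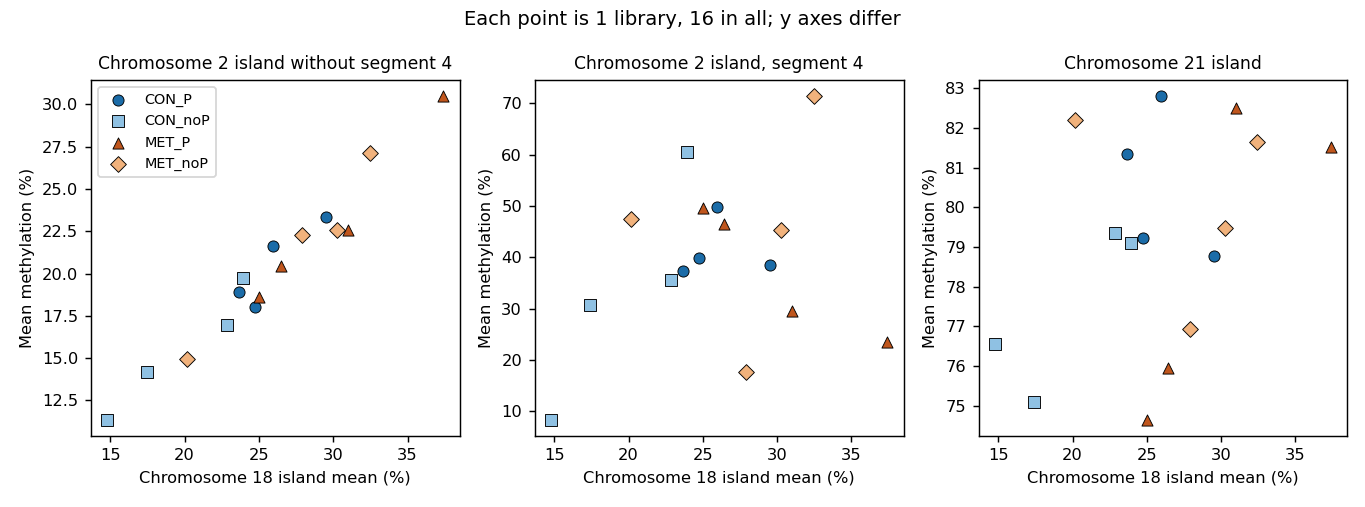
Mean methylation in percent of the chromosome 2 island without segment 4 (left), of its segment 4 (middle) and of the chromosome 21 island (right) on the vertical axes against the chromosome 18 island mean on the horizontal axes, with 1 point per library in 4 groups. The left points lie along a line (r = 0.98), the middle and right ones do not (r = 0.22 and 0.43).

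The other segments differed in how closely they followed chromosome 18. On chromosome 2, segments 3 and 6 had the highest r with the chromosome 18 mean, 0.93 and 0.96, and segments 1, 2 and 5 had 0.79, 0.77 and 0.81. On chromosome 21 no segment went above 0.54, and segment 9 had -0.26. The long island of chromosome 21 was not uniform either: segments 7 and 8, which hold 58 positions, had an r of 0.80 and 0.73 with the rest of the island, segments 4 and 9 of -0.39 and -0.24. Of its positions, 59 of 120 (49.2%) had an r over 0.5 with the mean of the other positions, against 151 of 158 (95.6%) on chromosome 18 and 119 of 146 (81.5%) on chromosome 2.

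**Figure D5:**
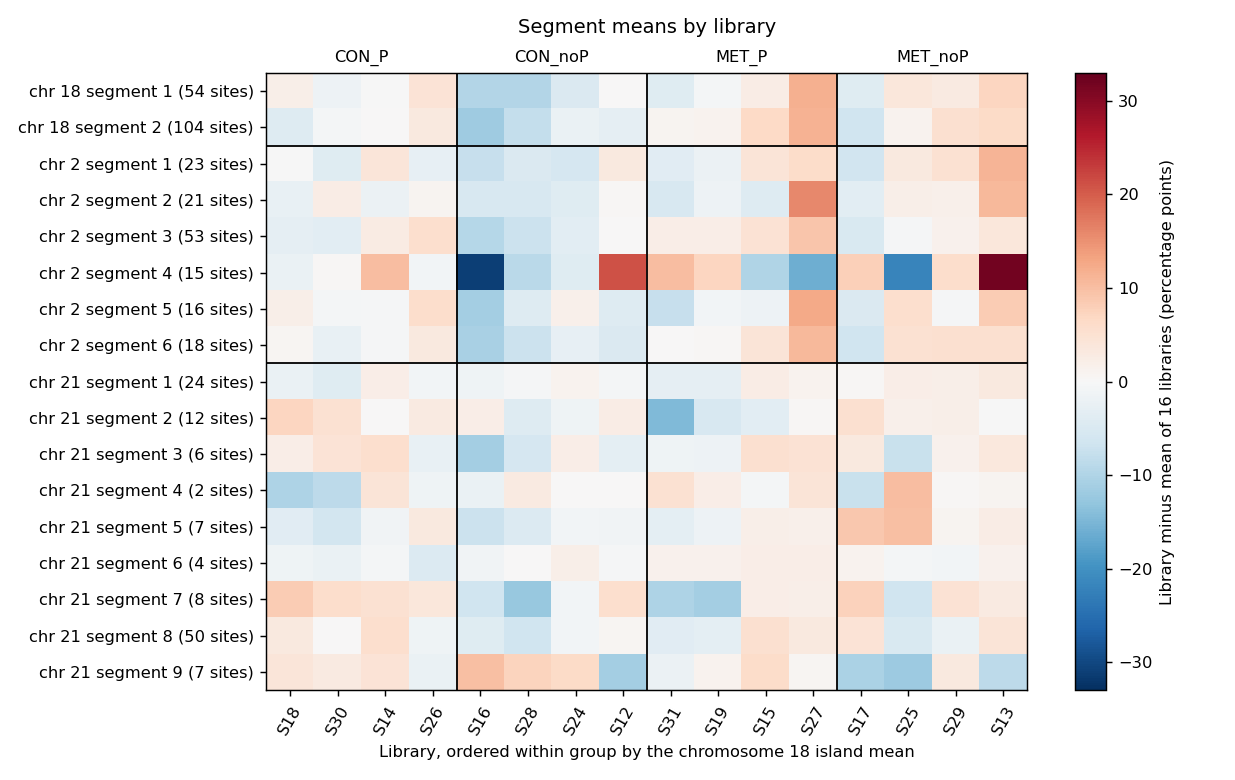
Deviation of each library from the mean of all 16 libraries in percentage points (colour) for the 17 segments of the 3 islands (rows), with libraries in columns by group and, within a group, in the order of their chromosome 18 mean. S16 is blue and S27 red through both segments of chromosome 18 and most of chromosome 2, segment 4 of chromosome 2 has the strongest colours, with S13 and S12 red and S16 and S25 blue, and chromosome 21 shows no shared order.

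Few regions of the table shared the order of libraries seen on chromosomes 18 and 2. Of 13261 other regions of at least 5 positions, the median r with the chromosome 18 mean was 0.10, 9 had an r over 0.8 and 2 over 0.9. The most alike were chosen by r alone, after the values were seen. The first held 16 positions at chr6:109018712-109018768 with a mean of 20.04%, no gene, and an r of 0.98 with chromosome 18 and 0.92 with chromosome 2. Its libraries reached from 8.61% in S16 to 34.7% in S27, the same lowest and highest libraries as on chromosome 18. The second held 12 positions at chr1:6042906-6043073 with a mean of 24.1%, no gene and an r of 0.91 with chromosome 18. The region of 1223 positions on chromosome 27 that the study also singled out had an r of 0.97 with chromosome 18, 0.93 with chromosome 2 and 0.44 with chromosome 21. For chromosome 21 the highest r of any region was 0.78, with 27 positions at chr2:121568783-121569290 that had a mean of 84.9% and lie before the chromosome 2 island. The study describes its singled-out regions on chromosomes 27, 18 and 21 as made up mainly of CpG islands, repeats and transcription start sites. Whether the alike regions share repeats or other sequence was not analysed here.

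The spread within groups was set beside that of other positions of the same level, in steps of 10 percentage points. Between 20% and 30%, the median SD within groups was 6.36 over 41 positions of chromosome 18 and 6.98 over 34 of chromosome 2, against 9.81 over 15736 positions outside the islands. Under 10%, the 17 positions of chromosome 18 had 4.23 and the 18 of chromosome 2 had 2.20, against 3.62. Between 10% and 20%, which held 62 positions of each, they had 5.05 and 5.61, against 6.31. Between 80% and 90%, the 65 positions of chromosome 21 had a median SD of 4.35 and the 4 of chromosome 18 had 8.52, against 7.26 over 22776 outside. Segment 4 of chromosome 2, with position means from 32.7% to 47.8%, fell into 2 steps. Between 30% and 40%, the 17 positions of chromosome 2 had 14.5 against 11.3. Between 40% and 50%, its 12 positions had 14.7 against 11.9. The library SD of the island means was near the middle of that of other regions on chromosomes 18 and 2, and smaller than most on chromosome 21. Among regions of at least 20 positions within 10 percentage points of the same level, 61 of 177 (34.5%) had a larger SD between libraries than the 5.68 of chromosome 18, 73 of 165 (44.2%) than the 4.96 of chromosome 2, and 31 of 44 (70.5%) than the 2.70 of chromosome 21.

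Brushed endometrium holds epithelium with some leukocytes and stroma, and a shift in this mix would change methylation. Methylation of marker genes served as a rough guide to it, since the level of a gene does not measure its expression. The mean over 185 positions in 11 of 18 leukocyte genes lay between 48.0% and 59.5% in CON_P, 52.8% and 54.5% in CON_noP, 53.8% and 57.4% in MET_P and 48.9% and 56.5% in MET_noP. For 57 positions in 9 of 12 epithelial genes the ranges were 20.5% to 27.6%, 21.3% to 27.6%, 21.2% to 24.3% and 19.2% to 30.5%, and for 30 positions in 5 of 8 stromal genes 50.4% to 58.5%, 54.4% to 59.2%, 55.5% to 59.0% and 53.5% to 59.3%, in the same order of groups. All of these ranges overlapped, and across libraries the 3 lists had an r of 0.24, 0.31 and 0.02 with chromosome 18 and of 0.24, 0.26 and 0.04 with chromosome 2. For deviations from the group means, the r was 0.15, 0.44 and -0.02 with chromosome 18 and 0.20, 0.29 and 0.03 with chromosome 2. The mitochondrial genome, often used as a rough measure of incomplete bisulfite conversion, lay between 4.25% and 7.38% over 13 positions, with an r of 0.06 with chromosome 18 and -0.23 with chromosome 2, and of -0.44 and -0.70 for deviations from the group means. Positions with a zero value had been dropped, so the 13 mitochondrial positions are those with signal in every library. Their level may therefore overstate incomplete conversion. The study reported a higher average conversion than this level would imply, and nearly the same in all groups. The part of cell mix or conversion in the island values was not tested.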

How the data were processed

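Reads had been quality trimmed by the authors (Trim Galore), mapped with Bismark on bowtie2 to the assembly ARS-UCD1.2 and pooled over the sequencing runs of a library (SAMtools). Cytosine positions had been quantified in SeqMonk with a minimum of 10 reads, and positions with a zero value had been dropped. The deposited values are percent methylation per position and library, without read counts or normalization between libraries, so depth and counting error are unknown.

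Columns were assigned to groups by the group name above them. Island values are means over positions, with SD over libraries and no test. Percentages were turned into M = log2((percent + 1)/(100 - percent + 1)). Positions (199395) and regions (13267: positions at most 100 bp apart, at least 5, each island as 1 region) were tested with limma 3.58.1 in R 4.3.3, on the 8 libraries of 2 groups or on all 16 for pooled diet, pooled outcome and interaction, with Benjamini-Hochberg adjustment over all features and a threshold of 0.05. P-values measure the spread between libraries only. Simulated data held 4 libraries per group and 2000 changed positions or 200 changed regions. Only lowly methylated positions or regions were changed, all upward in CON_P, and the fit was that of CON_P against CON_noP. The counts that follow do not speak for the highly methylated chromosome 21 island or for the fits on all 16 libraries. The position fit called 0 changed positions at 20, 762 at 40 and 1728 at 60 percentage points, with 0, 36 and 125 false calls. The region fit called 196 of 200 changed regions at 20 and all 200 at 40 and 60, with 23, 9 and 4 false calls. The noise was drawn separately for each position. In the data, positions of a segment varied together, with a median r of 0.75 and 0.69 in the segments of chromosome 18. The region counts are therefore no measure of what the region fit could find in the islands. The named positions of each island are the first and last, the highest and lowest mean, the largest SD within groups and the lowest p in each comparison of 2 groups. The islands, lists and tests were chosen with earlier results of these data known. Python 3.11.15 with pandas 2.3.3, numpy 2.4.6, scipy 1.17.1 and matplotlib 3.10.9 made summaries and figures. No sequence was read, and exon or repeat positions were not analysed here.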

Additional observations from a re-analysis of the deposited data

Results flagged for a closer look

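Within each group of 4 libraries, the island means, segment means, gene means and named positions (45 measures, 180 groups) were searched for a library far from the other 3, by Dixon's criterion at 95%, which chance meets in about 1 in 20 groups. It was met 6 times, less often than at that rate, and by no island mean. The measures also overlap, since the positions lie within the segments and islands searched. Library S17 of MET_noP stood apart in 3 measures: segment 6 of chromosome 2, at 20.1% beside 31.7% to 31.9% in the other 3 libraries, the last position of chromosome 18 (59226010), at 10.1% beside 14.9% to 15.1%, and position 59225696 of chromosome 18, at 89.4% beside 98.0% to 99.5%. Library S12 of CON_noP stood apart at 59225694 of chromosome 18, with 9.09% beside 73.0% to 80%, and at 121575870 of chromosome 2, with 50.0% beside 88.6% to 89.8%. At the same chromosome 2 position library S14 of CON_P had 71.0% beside 85.7% to 88.3%. Both positions in which S12 stood apart were members of pairs whose 2 strands differed by over 40 percentage points on average, 44.8 on chromosome 18 and -56.3 on chromosome 2. The depth at these positions is unknown, and its part in the values was not tested.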

How the results depend on the processing

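No paired analysis was possible because the columns carry library numbers and group names but not the replicate numbers of the labels. With sets of consecutive library numbers (S12 to S15, S16 to S19, S24 to S27 and S28 to S31) as a block instead, adjusted p values of the region fit were 0.641 for methionine on chromosome 18 and 0.748 for MET_noP against CON_noP. Within the 4 sets, MET_noP was higher than CON_noP on chromosome 18 by 5.05 to 12.8 percentage points and on chromosome 2 by 2.92 to 9.05, and CON_P was higher than CON_noP in all 4, by 2.03 to 8.85 and 0.571 to 9.74. Both of these comparisons used the same CON_noP libraries. MET_P minus CON_P was positive in 4 sets on chromosome 18 and 3 on chromosome 2, and MET_P minus MET_noP in 2 of 4 on each island (-5.22 to 9.47 on chromosome 18). On chromosome 21, CON_P minus CON_noP and MET_noP minus CON_noP were positive in 3 sets, with -0.576 and -2.42 in the other, and MET_P minus CON_P in 1.

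No island position passed an adjusted p of 0.05 in 53 refits under 8 other settings (lowest p 0.371) or with 1 library left out (lowest 0.172), and no island passed as a region (0.494 and 0.456). The alternative values of the island mean differences, 112 of other settings and 240 without 1 library, stayed within 1 SD between libraries. Leaving out 1 of 4 libraries cannot move a difference by more than this SD, so the 240 values could not fall outside. The SD was also wide, at 5.46 percentage points for MET_P against MET_noP on chromosome 18, where the difference was 2.27. The sign changed in 3 of the 112 values and in 9 of the 240. In M value, the region difference of MET_P and MET_noP lay between -0.071 and 0.34 on chromosome 18 and between -0.11 and 0.28 on chromosome 2 with 1 library left out, and was negative without S17 or S27. That of both diets on chromosome 21 lay between -0.018 and 0.099, negative without S13, S15, S16, S17 or S28, and was -0.10 with libraries centred. The cause was not tested.

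Counts at an unadjusted p under 0.05 depended on the setting: 68 of 159 moved by over 1.5 times under another setting and 135 of 240 with 1 library left out. The 30 positions of chromosome 18 by diet became 69 on the percent scale, 48 with the block and 12 with libraries centred, and the 16 of chromosome 2 became 37, 29 and 0. The 17 of MET_noP against CON_noP on chromosome 18 became 50 on the percent scale, 32 with a variance trend, 35 with all libraries in 1 model, 9 with strands merged and 5 with libraries centred. The 5 of CON_P against CON_noP became 31, 17, 8, 0 and 2 in these settings. The 20 of chromosome 2 by outcome became 10 with libraries centred or strands merged. The depth behind every single position is unknown.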
